A study of Homo sapiens with 8 samples.

Results

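The 10 genes described here encode proteins of RNA interference and of the microRNA pathway. They are EIF2C1, EIF2C2, EIF2C3 and EIF2C4 (the Argonautes, now named AGO1 to AGO4), DICER1, XPO5, DGCR8, TNRC6A, TNRC6B and GEMIN4. They were taken by symbol from a table of raw read counts for 23368 genes, all 10 have a row there, and all 10 passed the filter on low counts. The cells were MDA-MB-231, a human cell line from a breast cancer that lacks the estrogen and progesterone receptors, grown with serum. RNA-seq was done after transfection of a control siRNA (siC) or of siE1, siE2 or siE3, which are 3 different siRNAs against ESRRA, the gene of the orphan nuclear receptor ERRα. Each group had 2 libraries, 8 in all. The sources used here do not give siRNA sequences, doses or the time of harvest. All 4 groups, the control included, had received an siRNA and the transfection reagent, and untransfected cells are not analysed here.

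MicroRNAs are cut from long primary transcripts in the nucleus by the Microprocessor, made of the RNase DROSHA and its RNA-binding partner DGCR8. Exportin 5 (XPO5) carries the hairpins to the cytoplasm, where DICER1 cuts them to short duplexes and an Argonaute protein takes up 1 strand. Argonaute then binds TNRC6 proteins, which call in enzymes that shorten the poly(A) tail and remove the cap of the target mRNA. A transfected siRNA enters at the Argonaute step, and among the human Argonautes EIF2C2 is the main one that cuts a fully matched target. GEMIN4 is a subunit of the SMN complex, which assembles spliceosomal RNPs, and has also been found in particles with Argonaute. Several of these mRNAs, DICER1 among them, are themselves known targets of microRNAs.

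Library totals ran from 21835995 to 25880548 counts. ESRRA mRNA fell with each siRNA, to 16.3% (siE1), 12.6% (siE2) and 13.2% (siE3) of the siC level. Most markers of the line were as described for it, but ERBB2 was not low or absent and SPARC was low. VIM stood at 3165 to 4058 CPM (read counts per library size, scaled by TMM) and CD44 at 604 to 828, EGFR at 86.7 to 126 and SPARC at 5.35 to 16.6, while ESR1, PGR and CDH1 had at most 3 counts in a library. ERBB2, taken as a marker that is low or absent in this line, stood at 52.0 to 67.1 CPM. Of 7 markers of blood, endothelium, liver and fibroblasts, CD3E and DCN had no count, PTPRC and ALB at most 2, PECAM1 and CDH5 stayed below 1 CPM, and COL1A1 reached 9.94. The labels do not say that the 2 libraries of a group came from separate cultures, and p-values therefore reflect only how far these libraries lie apart, which may be technical. In bulk RNA, fewer expressing cells and less RNA per cell cannot be told apart.

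Against siC, EIF2C4 and DICER1 rose and XPO5 and GEMIN4 fell with all 3 ESRRA siRNAs. EIF2C1, DGCR8 and TNRC6B were called by none. EIF2C2, EIF2C3 and TNRC6A were called with some siRNAs and not with others, and EIF2C2 changed in opposite directions with siE2 and siE3. A call is an adjusted p below 0.05 in edgeR's quasi-likelihood test, fitted over all 8 libraries and 13395 genes. With siE1 4 of the 10 rose and 2 fell, where 50.3% of all genes were called (24.5% higher, 25.8% lower). With siE2 2 rose and 3 fell, against 56.4% of all genes called (27.9% higher, 28.5% lower). With siE3 5 rose and 2 fell, against 42.1% called (21.3% higher, 20.8% lower). The shares of the 10 genes called were thus 60%, 50% and 70%, near the background with siE1 and siE2 and above it with siE3, a difference that was not tested. Called the same way by all 3 siRNAs were 2 genes higher and 2 lower, where over all genes 8.73% were higher and 7.42% lower in all 3. The 3 comparisons share the same siC libraries. With a change of at least 1.5-fold also required, 1 gene passed with siE1 (EIF2C4), where 14.7% of all genes did. With siE2 and with siE3 it was 3 genes each (EIF2C4, DICER1 and XPO5), against 18.0% and 9.97% of all genes, and the same number passed in the average of the 3 siRNAs, against 9.53%. XPO5 with siE3 passed this limit narrowly, at a log2 fold change of -0.588, and GEMIN4 with siE2 narrowly missed it, at -0.580.

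**Figure D1:**
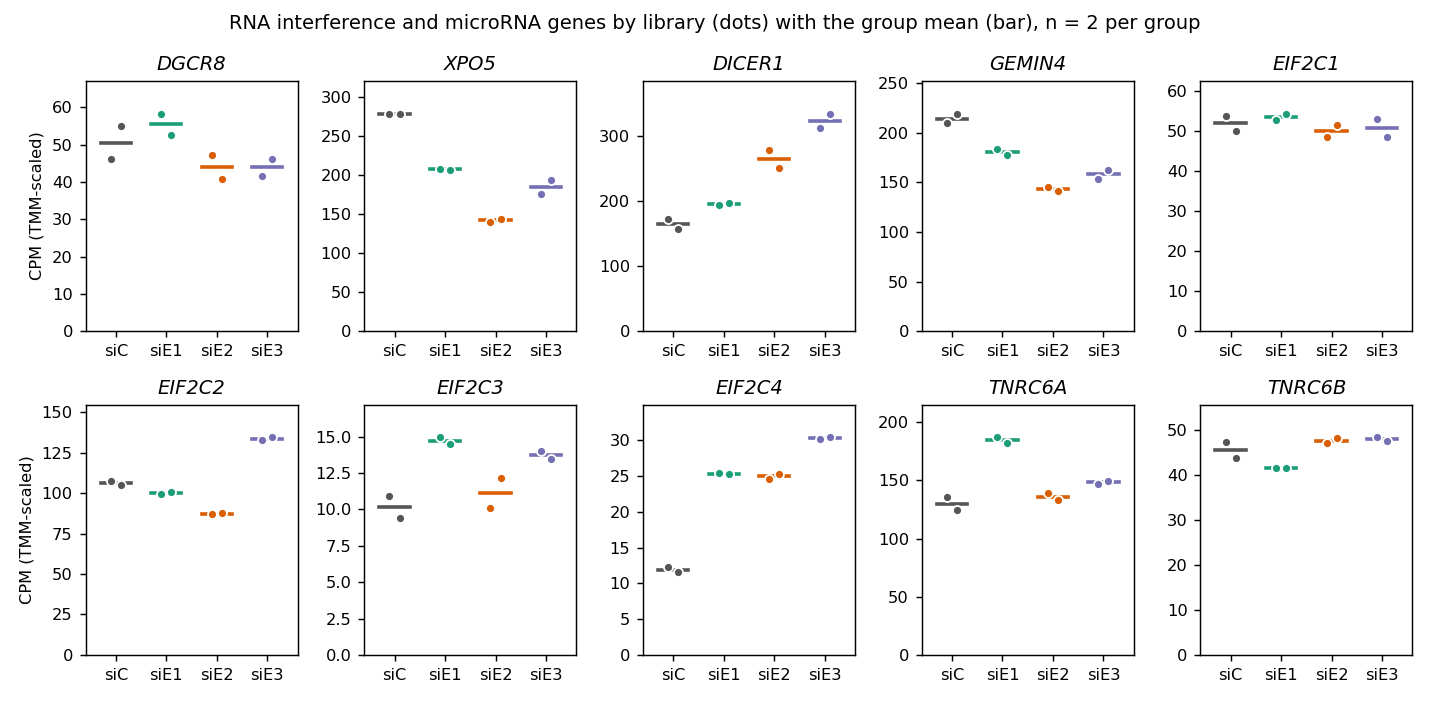
TMM-scaled CPM (y axes from 0, a scale of its own for each gene) of the 10 genes in the 4 siRNA groups (x axes). Dots are libraries and bars are means of 2 libraries. XPO5 is lowest with siE2, DICER1 is highest with siE3, and EIF2C4 stands above siC in all 6 ESRRA siRNA libraries.

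DGCR8, the hairpin-binding partner of DROSHA, was not called against siC with any siRNA. Its libraries stood at 46.1 and 54.8 CPM under siC, 58.3 and 52.5 under siE1, 47.3 and 40.8 under siE2, and 41.6 and 46.2 under siE3. The siC libraries overlapped those of every ESRRA siRNA. Log2 fold changes were 0.13 (SE 0.0895, edgeR adjusted p = 0.240), -0.20 (SE 0.0914, edgeR adjusted p = 0.0779) and -0.20 (SE 0.0917, edgeR adjusted p = 0.0918). Without siC replicate 1 DGCR8 was called lower with siE2 (-0.32, edgeR adjusted p = 0.0136) and siE3 (-0.32, edgeR adjusted p = 0.0189). Without siC replicate 2 it was called higher with siE1 (0.26, edgeR adjusted p = 0.0496), and without siE2 replicate 1 lower with siE2 (-0.31, edgeR adjusted p = 0.0275). When no gene was filtered out for low counts it was also called lower, with edgeR adjusted p = 0.0232 for siE2 and edgeR adjusted p = 0.0363 for siE3. DGCR8 was called with all 3 siRNAs when replicate number was a block and the numbers of siE1 and siE2 were crossed. That choice was made after seeing the data, and the values were 0.14 with siE1, -0.20 with siE2 and -0.20 with siE3.

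Between the siRNAs DGCR8 did differ, with siE1 above siE2 by 0.33 (SE 0.0904, edgeR adjusted p = 0.00578) and above siE3 by 0.33 (SE 0.0907, edgeR adjusted p = 0.00688). DROSHA, the RNase of the same complex, went the other way in these comparisons, with siE1 below siE2 by a log2 difference of -0.64 (SE 0.0520, edgeR adjusted p = 6.18e-08) and below siE3 by -0.60 (SE 0.0521, edgeR adjusted p = 2.36e-07). DROSHA is known to cut hairpins within the DGCR8 mRNA itself. The mean level of DROSHA was 198 CPM in the siC libraries, and 111, 173 and 168 CPM in those of siE1, siE2 and siE3. Against siC, DROSHA stood at -0.84, -0.20 and -0.24 with siE1, siE2 and siE3, all called. DGCR8 stood at 0.13, -0.20 and -0.20, none called, so with siE2 and siE3 the values of both genes were negative. Whether the DROSHA and DGCR8 values are linked was not tested. The siE1 difference in DGCR8 was not called without siE1 replicate 1 (0.25 against siE2, edgeR adjusted p = 0.0604, and 0.26 against siE3, edgeR adjusted p = 0.0689), nor against siE2 without siE2 replicate 2 (0.23, edgeR adjusted p = 0.0879) or against siE3 without siE3 replicate 1 (0.26, edgeR adjusted p = 0.0713). The coding part of the DGCR8 mRNA carries the hairpin of miR-1306, whose mature strands are shown because they locate that hairpin (RefSeq, GRCh38.p14, chromosome 22, plus strand, bases 2 to 8 in capitals).
hsa-miR-1306-5p: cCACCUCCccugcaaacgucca
hsa-miR-1306-3p: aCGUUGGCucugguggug
The hairpin of miR-3618 lies outside the coding part of the same mRNA. Neither microRNA was measured here, since the table counts gene transcripts.

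XPO5, which exports microRNA hairpins from the nucleus, fell with each siRNA and most with siE2. Its libraries stood at 279 and 278 CPM under siC, 208 and 207 under siE1, 140 and 144 under siE2, and 176 and 194 under siE3. Every ESRRA siRNA library lay below both siC libraries, and the 3 siRNAs did not overlap each other. Relative to siC, 74.6%, 51.0% and 66.5% of the level remained. Log2 fold changes were -0.42 (SE 0.0479, edgeR adjusted p = 3.10e-06), -0.97 (SE 0.0489, edgeR adjusted p = 4.80e-10) and -0.59 (SE 0.0483, edgeR adjusted p = 1.58e-07). The siE2 level was below that of siE1 and of siE3, with siE1 above siE2 by 0.55 (SE 0.0491, edgeR adjusted p = 1.81e-07) and siE2 below siE3 by -0.38 (SE 0.0493, edgeR adjusted p = 1.24e-05). XPO5 also stood higher with siE1 than siE3, by 0.16 (SE 0.0485, edgeR adjusted p = 0.0114), a value that was not called without siE1 replicate 1 (0.16, edgeR adjusted p = 0.0595) or without siE3 replicate 1 (0.09, edgeR adjusted p = 0.125). XPO5 shares exon bases with POLR1C, a subunit of RNA polymerases I and III on the opposite strand, with a longest stretch of 129 bases in GENCODE v29. POLR1C stood at -0.09, -0.51 and -0.45 with siE1, siE2 and siE3, at a mean of 60.8 CPM under siC, and its part in the XPO5 counts was not tested.

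DICER1, the RNase that releases the mature duplex, rose with each siRNA. The libraries stood at 172 and 157 CPM under siC, 194 and 197 under siE1, 278 and 250 under siE2, and 312 and 334 under siE3. No library of 1 group overlapped another group, in the order siC, siE1, siE2 and siE3. The levels were 119%, 161% and 196% of siC. Log2 fold changes were 0.25 (SE 0.0584, edgeR adjusted p = 0.00223), 0.68 (SE 0.0580, edgeR adjusted p = 1.08e-07) and 0.97 (SE 0.0580, edgeR adjusted p = 5.10e-09). The steps between the siRNAs were called too, with siE1 below siE2 by -0.43 (SE 0.0574, edgeR adjusted p = 1.15e-05) and siE2 below siE3 by -0.29 (SE 0.0567, edgeR adjusted p = 5.90e-04). In the same 3 groups 16.3%, 12.6% and 13.2% of ESRRA remained, and the log2 difference in ESRRA for siE2 against siE3 was -0.06 (95% interval -0.31 to 0.18, edgeR adjusted p = 0.673). ESRRA was higher with siE1 than with siE2 (0.37, SE 0.108, edgeR adjusted p = 0.00922), though not called without siE2 replicate 2 (0.23, edgeR adjusted p = 0.137). It was also higher with siE1 than with siE3 (0.30, SE 0.108, edgeR adjusted p = 0.0310), a call lost without any 1 of the 4 libraries of these groups (0.28 to 0.32, edgeR adjusted p = 0.0715 to 0.118) and by DESeq2 (adjusted p = 0.0657). Whether the DICER1 and ESRRA levels are linked was not tested.

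GEMIN4, known from the SMN complex and from Argonaute particles, fell with each siRNA. It stood at 209 and 219 CPM under siC, 184 and 178 under siE1, 145 and 142 under siE2, and 154 and 162 under siE3. All 6 libraries with an ESRRA siRNA were below both siC libraries, and the order of the group means was that of XPO5. The levels were 84.3%, 66.9% and 73.7% of siC, with log2 fold changes of -0.25 (SE 0.0465, edgeR adjusted p = 4.20e-04), -0.58 (SE 0.0471, edgeR adjusted p = 6.80e-08) and -0.44 (SE 0.0469, edgeR adjusted p = 2.42e-06). With siE1 GEMIN4 stood above siE2 by 0.33 (SE 0.0472, edgeR adjusted p = 2.22e-05) and above siE3 by 0.19 (SE 0.0471, edgeR adjusted p = 0.00331). Its siE2 level lay below siE3 by -0.14 (SE 0.0476, edgeR adjusted p = 0.0235), a value that was not called without siE2 replicate 2 (-0.12, edgeR adjusted p = 0.131), without siE3 replicate 2 (-0.10, edgeR adjusted p = 0.146) or with library size as the only scaling (-0.10, edgeR adjusted p = 0.0789).

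**Figure D2:**
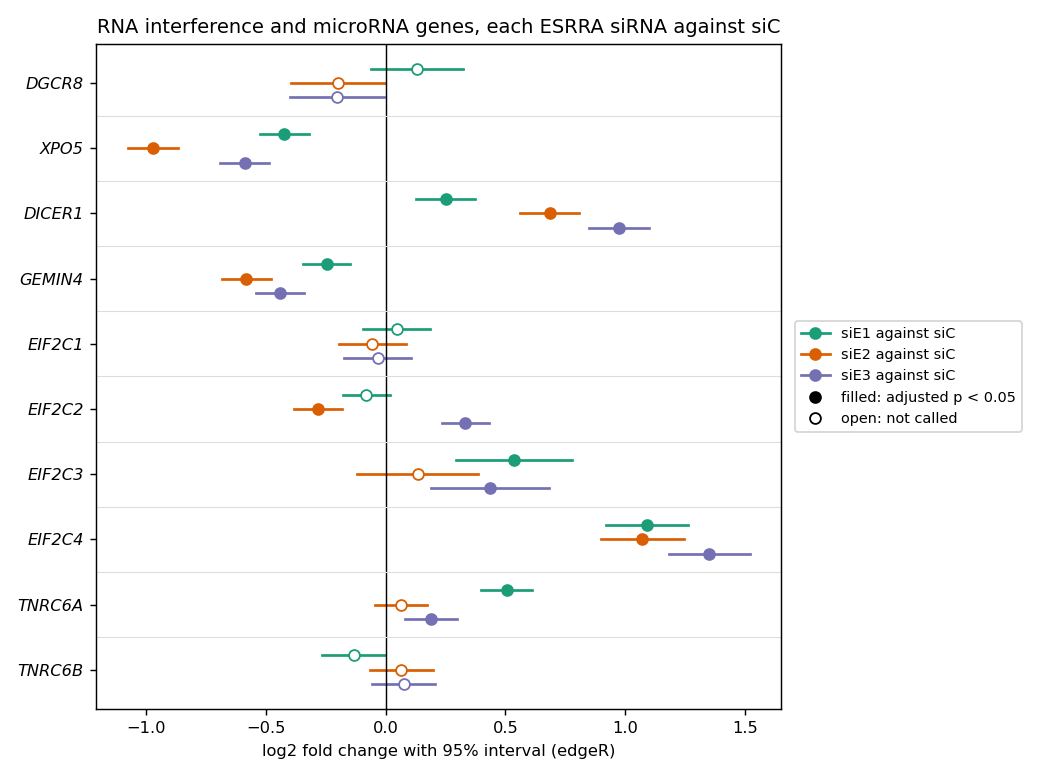
Log2 fold change (x axis) of each gene (y axis) for siE1, siE2 and siE3 against siC, with 95% intervals from edgeR; filled dots are called and open dots are not. XPO5 and GEMIN4 lie left of 0 and DICER1 and EIF2C4 right of it for all 3 siRNAs, while EIF2C2 lies at -0.28 with siE2 and at 0.33 with siE3.

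The 4 Argonaute genes did not move as a group. EIF2C4 had the highest rise of the 10 genes with each siRNA. It stood at 12.2 and 11.6 CPM under siC, 25.4 and 25.2 under siE1, 24.6 and 25.3 under siE2, and 30.2 and 30.4 under siE3. All 6 libraries with an ESRRA siRNA were above both siC libraries. The levels were 213%, 210% and 255% of siC, or log2 fold changes of 1.09 (SE 0.0805, edgeR adjusted p = 3.39e-08), 1.07 (SE 0.0808, edgeR adjusted p = 3.18e-08) and 1.35 (SE 0.0795, edgeR adjusted p = 4.50e-09). EIF2C4 was higher with siE3 than with siE1 or siE2, where siE1 lay below siE3 by -0.26 (SE 0.0715, edgeR adjusted p = 0.00756) and siE2 by -0.28 (SE 0.0718, edgeR adjusted p = 0.00470). For siE1 against siE2 the difference was 0.02, with a 95% interval of -0.14 to 0.17.

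EIF2C2, the slicing Argonaute, was lower with siE2 and higher with siE3. Its libraries stood at 107 and 105 CPM under siC, 99.7 and 101 under siE1, 86.8 and 87.6 under siE2, and 133 and 134 under siE3. The replicates lay close together and no groups overlapped. With siE1 the log2 fold change was -0.08 (SE 0.0462, edgeR adjusted p = 0.164), not called. With siE2 it was -0.28 (SE 0.0467, edgeR adjusted p = 9.87e-05) and with siE3 0.33 (SE 0.0457, edgeR adjusted p = 3.14e-05). The difference between siE2 and siE3 was itself called, at -0.61 (SE 0.0462, edgeR adjusted p = 4.65e-08). EIF2C2 was the 1 gene of the 10 called in opposite directions by siE2 and siE3, as were 3.77% of all genes, 1.94% lower with siE2 and higher with siE3. In the average of the 3 siRNAs these values cancelled to -0.01 (SE 0.0377, edgeR adjusted p = 0.838).

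EIF2C3, an Argonaute with the lowest counts of the 10 genes, had 219 to 376 counts in a library. It stood at 10.95 and 9.38 CPM under siC, 14.95 and 14.5 under siE1, 10.1 and 12.2 under siE2, and 13.99 and 13.5 under siE3. The siE1 and siE3 libraries were above both siC libraries, and those of siE2 overlapped them. Log2 fold changes were 0.54 with siE1 (SE 0.113, edgeR adjusted p = 0.00107), 0.13 with siE2 (SE 0.118, edgeR adjusted p = 0.352) and 0.43 with siE3 (SE 0.115, edgeR adjusted p = 0.00682). Without siC replicate 2 the siE3 value was not called (0.32, edgeR adjusted p = 0.0893), nor the average of the 3 siRNAs (0.26, edgeR adjusted p = 0.116, against 0.37 and 0.00469 with all libraries). EIF2C1 stayed between 48.4 and 54.3 CPM in the 8 libraries, with log2 fold changes of 0.05, -0.06 and -0.03, none of them called (edgeR adjusted p = 0.584, 0.488 and 0.722). The 95% intervals of these values ran from -0.20 to 0.18 over the 3 siRNAs.

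EIF2C4, EIF2C1 and EIF2C3 lie side by side in this order on chromosome 1, on the same strand and with no other protein-coding gene between them in RefSeq (GRCh38.p14). In this row EIF2C1, which was not called, lies between a gene called with all 3 siRNAs and a gene called with siE1 and siE3. The CPM of the 4 Argonaute genes, added up without correction for transcript length, came to 180 ± 5.79 (SD, n = 2) with siC. The sum was 194 ± 1.48 with siE1, 173 ± 4.58 with siE2 and 228 ± 2.00 with siE3, and the siE3 libraries lay above all others. EIF2C2 alone gave 106 CPM of the sum with siC and 133 with siE3. Without a correction for length the sum is no count of Argonaute mRNA molecules. The Argonaute genes are close relatives, and the sources used here do not say how reads that match several copies were counted. SMN1 and SMN2, which are nearly identical to each other, had 0 counts in all 8 libraries.

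TNRC6A and TNRC6B, the scaffold proteins that link Argonaute to deadenylation, moved differently. TNRC6A stood at 136 and 125 CPM under siC, 187 and 182 under siE1, 139 and 133 under siE2, and 147 and 149 under siE3. The siE1 libraries were above all others, and those of siE2 overlapped siC. Log2 fold changes were 0.51 with siE1 (SE 0.0501, edgeR adjusted p = 7.95e-07), 0.06 with siE2 (SE 0.0507, edgeR adjusted p = 0.296) and 0.19 with siE3 (SE 0.0506, edgeR adjusted p = 0.00684). The siE3 value was not called without siC replicate 2 (0.13, edgeR adjusted p = 0.116). TNRC6A was higher with siE1 than with siE2 (0.44, SE 0.0499, edgeR adjusted p = 2.22e-06) and than with siE3 (0.32, SE 0.0497, edgeR adjusted p = 9.55e-05).

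TNRC6B lay between 41.4 and 48.3 CPM in the 8 libraries, with both siE1 libraries below both siC libraries, and was not called against siC (log2 fold changes -0.13, 0.07 and 0.08, edgeR adjusted p = 0.0873, 0.377 and 0.352). With siE1 it was lower than with siE2 (-0.20, SE 0.0614, edgeR adjusted p = 0.0120) and than with siE3 (-0.21, SE 0.0615, edgeR adjusted p = 0.0115), the opposite order to TNRC6A. The first of these was not called without siE1 replicate 1 (-0.20, edgeR adjusted p = 0.0510), siE1 replicate 2 (-0.20, edgeR adjusted p = 0.0566) or siE2 replicate 2 (-0.18, edgeR adjusted p = 0.0672), and the second not without siE1 replicate 2 (-0.21, edgeR adjusted p = 0.0565). By the authors' deposited table, which gives an adjusted p for each siRNA against siC, 6, 5 and 7 of the 10 genes were below 0.05 with siE1, siE2 and siE3, and all 10 fell on the same side of that threshold as here for each siRNA. In the authors' deposited table the fold for EIF2C4 was 2.14, 2.09 and 2.55, and for XPO5 it was 0.748, 0.507 and 0.666.

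Between the 3 siRNAs, which all lowered ESRRA, most of the 10 genes differed. Of the 10, 6 were higher and 2 lower with siE1 than with siE2, where 57.1% of all genes were called (28.5% higher, 28.6% lower). Against siE3, siE1 had 4 higher and 4 lower, with 48.7% of all genes called (23.3% higher, 25.4% lower). For siE2 against siE3, 6 were lower and 0 higher, with 48.5% of all genes called (25.0% lower, 23.4% higher). Those 6 were EIF2C2, EIF2C3, EIF2C4, DICER1, XPO5 and GEMIN4, and TNRC6A stood at -0.13 (SE 0.0504, edgeR adjusted p = 0.0509). The EIF2C3 value in that comparison, -0.30 (edgeR adjusted p = 0.0399), was not called without siE2 replicate 1 (-0.18, edgeR adjusted p = 0.312), siE3 replicate 1 (-0.27, edgeR adjusted p = 0.131) or siE3 replicate 2 (-0.33, edgeR adjusted p = 0.0779). It also missed the threshold with library size as the only scaling (edgeR adjusted p = 0.0823), a stricter low-count cutoff (edgeR adjusted p = 0.0503) and the DESeq2 Wald test (adjusted p = 0.112). EIF2C3 was higher with siE1 than with siE2 by 0.40 (edgeR adjusted p = 0.00623), though not without siE2 replicate 1 (0.28, edgeR adjusted p = 0.0872). EIF2C1 was the 1 gene of the 10 called in none of the 3 comparisons, with values of 0.10, 0.08 and -0.02. With at least 1.5-fold required, 0 genes passed for siE1 against siE2, where 19.1% of all genes did, 1 for siE1 against siE3 (DICER1, 13.6% of all genes) and 1 for siE2 against siE3 (EIF2C2, 12.6% of all genes).

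**Figure D3:**
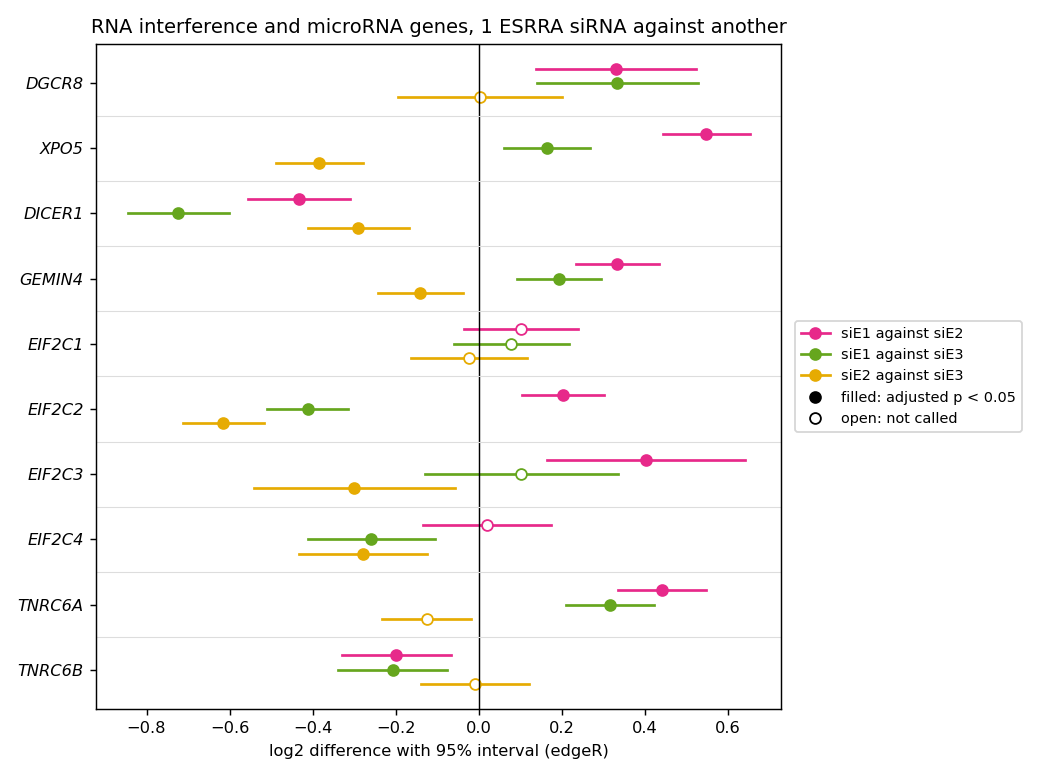
Log2 difference (x axis) of each gene (y axis) between pairs of ESRRA siRNAs, with 95% intervals from edgeR; filled dots are called and open dots are not. DICER1 is to the left of 0 in all 3 pairs, and for EIF2C2 siE2 lies below siE3 by -0.61.

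Levels of different genes were compared only per length, as CPM per kb of the principal GENCODE v29 transcript or of its coding part. Per kb of transcript, GEMIN4 (57.1 ± 1.84, SD, n = 2) and XPO5 (51.9 ± 0.0846) were highest under siC, followed by DICER1 (16.0 ± 0.976) and TNRC6A (15.4 ± 0.925), which did not differ beyond their spread. DGCR8 (11.2 ± 1.37) and EIF2C2 (7.27 ± 0.112) came next. EIF2C1 (3.79 ± 0.187), TNRC6B (2.53 ± 0.138), EIF2C4 (1.67 ± 0.0659) and EIF2C3 (0.517 ± 0.0564) were lowest. Per coding kb XPO5 (77.1 ± 0.126) stood above GEMIN4 (67.5 ± 2.18), and EIF2C2 moved up to the third place (41.2 ± 0.636). DICER1 stood at 28.5 ± 1.74 per coding kb under siC, below XPO5, GEMIN4 and EIF2C2. With siE2 it was at 45.8 ± 3.50, within its spread of GEMIN4 (45.1 ± 0.746), and with siE3 at 56.0 ± 2.73, next to EIF2C2 (51.8 ± 0.520) and XPO5 (51.3 ± 3.49). The transcripts of EIF2C1, EIF2C2, EIF2C3 and TNRC6B have 3' UTRs above 10 kb in this annotation (10921, 11888, 16755 and 12567 bases), so their values per transcript kb depend on how much of the UTR was counted, which is unknown here. Under siC EIF2C2 was the 1 gene of these 4 whose place differed between the scales.

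The 3' UTRs were searched on the sense strand for TACATTT and ACATTTA, which overlap by 6 bases. These letters came from an earlier search of the same fold changes for words common in genes raised by all 3 siRNAs, so the matches below are a description and no independent evidence. Of the 10 genes 6 held a match. DICER1 had 3 sites in 4270 bases, EIF2C4 1 in 4285, TNRC6B 4 in 12567, EIF2C1 5 in 10921, EIF2C2 2 in 11888 and EIF2C3 7 in 16755. XPO5, DGCR8, TNRC6A and GEMIN4, with 3' UTRs of 452 to 2420 bases, had none. At least 1 match was found in 31.9% of 11426 tested genes with a 3' UTR, in 67.4% of those within 20% of the length of DICER1 and likewise of EIF2C4, and in 93.8% of those near the length of TNRC6B. Near the lengths of EIF2C1, EIF2C2 and EIF2C3 it was 92.8%, 92.6% and 100%. EIF2C1 and EIF2C3 also held sites of 8 bases, which are not printed. The sites of DICER1 and EIF2C4, which rose with all 3 siRNAs, and the 8-base site of TNRC6B, which was not called, are set side by side (GENCODE v29, GRCh38, matched letters in capitals).
DICER1, chr14:95090324-95090351, minus strand: acagaataaaACATTTAacatatgtata
DICER1, chr14:95090204-95090231, minus strand: tttaatgatgACATTTAgcaagtgctca
DICER1, chr14:95086853-95086880, minus strand: ttgttttaatTACATTTgaataattata
EIF2C4, chr1:35855428-35855455, plus strand: cattgaagttTACATTTccatgtgctgt
TNRC6B, chr22:40329203-40329230, plus strand: tgctgcgcacTACATTTActtctttatc
The words were present in genes called higher with all 3 siRNAs (EIF2C4, DICER1), in EIF2C3, called higher with siE1 and siE3, in EIF2C2, called in opposite directions, and in genes not called with any siRNA (EIF2C1, TNRC6B). TNRC6A rose with siE1 and siE3 without them. In promoters (250 bases before to 50 after a start, RefSeq, GRCh38.p14), neither TNAAGGTCA, the usual form of the ERRα element, nor its core AAGGTCA, which lies within it, was found on either strand in 13 windows of 9 of the 10 genes, all but EIF2C2. Over all 35116 promoter windows 0.951% and 3.92% held them.

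In the wider pathway, more of the tested genes were called lower than higher in the average of the 3 siRNAs, where 51.1% of all genes were called (23.4% higher, 27.7% lower, median of all genes -0.01). Of the 10 genes themselves, 4 rose, 2 fell and the median was -0.00365. Of 11 genes of nuclear processing and export, 7 fell and 0 rose (median -0.13). DROSHA was at -0.42 (SE 0.0408), the cap-binding subunit NCBP1 at -0.21 (SE 0.0479), the GTPase RAN, which powers XPO5, at -0.13 (SE 0.0334) and the hairpin-binding HNRNPA1 at -0.27 (SE 0.0710). Without siC replicate 2 this list had 2 lower genes in place of 7. DROSHA fell with each siRNA, by -0.84, -0.20 and -0.24. RAN and HNRNPA1 were called with siE2 only, at -0.27 and -0.56. With siE1 and siE3 RAN stood at -0.06 and -0.06, and HNRNPA1 at -0.15 and -0.11. NCBP1 was called with siE1 and siE2 (-0.28 and -0.26) but not with siE3 (-0.10).

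Among 21 Dicer partners, chaperones and other Argonaute partners, 13 fell and 2 rose (median -0.17). The RNA-binding protein FXR1 rose by 0.72 (SE 0.0368), while the chaperone HSP90AB1, which helps to load Argonaute, was at -0.38 (SE 0.0311), its co-chaperone FKBP4 at -0.37 (SE 0.0364) and the RNA-editing enzyme ADAR at -0.27 (SE 0.0348), all 3 called. With siE2 alone 16 of the 21 fell and 1 rose (28.5% of all genes lower). Of 27 silencing effectors, 10 fell and 5 rose (median -0.07). Most of these 27 act in deadenylation, decapping or decay, but the list also holds another TNRC6 gene and AJUBA. LSM14A, a P-body protein, rose by 0.77 (SE 0.0363) and AJUBA by 0.42 (SE 0.0410; 0.77 and 0.59 with siE1 and siE2, but -0.10 with siE3, not called), whereas the decapping cofactor DCP1A was at -0.84 (SE 0.0496) and RQCD1, a CCR4-NOT subunit now named CNOT9, at -0.74 (SE 0.0527). RQCD1 stood at -0.18, -0.82 and -1.21 with siE1, siE2 and siE3, and DCP1A at -1.19, -1.02 and -0.30.

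GEMIN4 shared its direction with other subunits of the SMN complex. Of 7 tested genes of that complex besides GEMIN4, 5 fell and 0 rose (median -0.18), with GEMIN5 at -0.56 (SE 0.0428), GEMIN7 at -0.48 (SE 0.0547), GEMIN2 at -0.36 (SE 0.0629) and DDX20 at -0.18 (SE 0.0390). With siE2 6 fell and 1 rose, or 4 and 0 without siC replicate 2. Of 10 genes that add tails to microRNAs or degrade them, 5 fell and 0 rose (median -0.18, or 3 lower without siC replicate 2), with the exonuclease ERI1 at -0.37 (SE 0.0459), PARN at -0.29 (SE 0.0521), PNPT1 at -0.20 (SE 0.0508) and ZCCHC11 at -0.17 (SE 0.0467). LIN28A and LIN28B, which block the maturation of let-7, had at most 1 count in a library. Of 29 transcripts that carry microRNA hairpins, 12 fell and 5 rose (median -0.15). LPP rose by 1.00 (SE 0.0730), and DNM2 (-0.33, SE 0.0357), CTDSP2 (-0.33, SE 0.0366) and MCM7, the host of the miR-106b cluster (-0.31, SE 0.0356), fell. The germline Argonautes PIWIL1, PIWIL2 and PIWIL3 had at most 2 counts, and PIWIL4, at a mean of 0.353 CPM under siC, was not called (0.68, SE 0.363, edgeR adjusted p = 0.130). The genes named in these lists as rising or falling all had an edgeR adjusted p below 0.05 in the average. Some of them were not called with every siRNA. PARN was called with siE1 only (-0.64, where siE2 gave -0.15 and siE3 -0.08). Also not called were PNPT1 (0.01) and DDX20 (-0.10) with siE1, ADAR (-0.05) and DNM2 (-0.09) with siE2, and CTDSP2 (-0.03) with siE3.

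**Figure D4:**
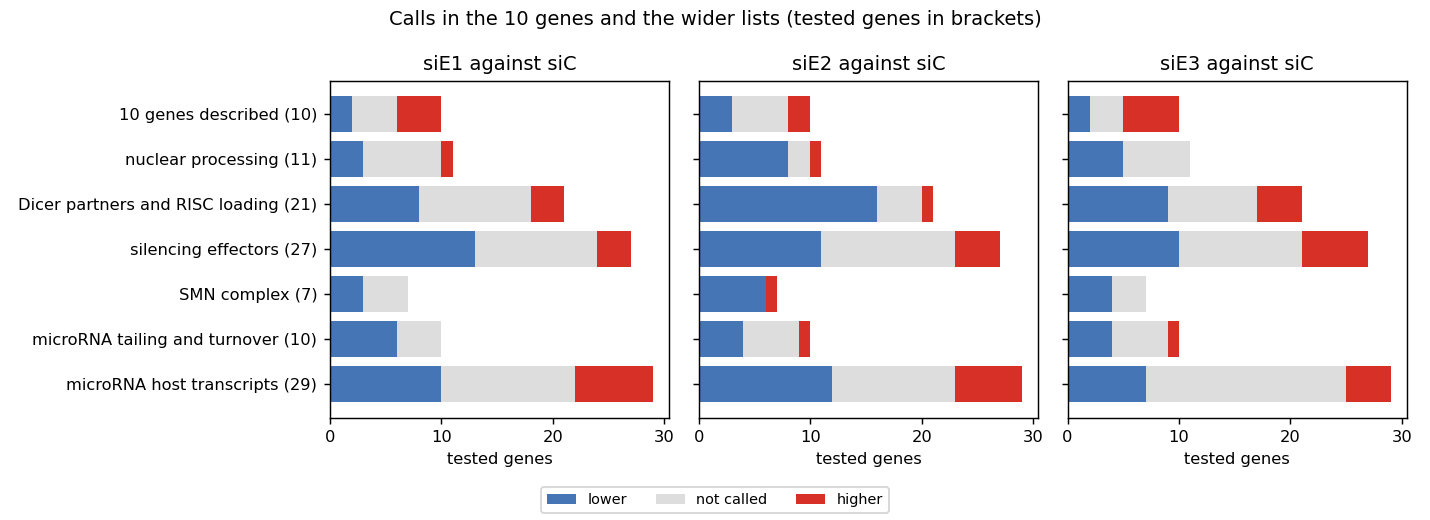
Number of tested genes (x axes) called lower, not called or called higher against siC with siE1, siE2 and siE3, in the 10 genes and in 6 wider lists of the pathway (y axis, tested genes in brackets). With siE2, 16 of the 21 genes of Dicer partners and RISC loading and 6 of the 7 SMN complex genes are lower.

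Genes whose pattern over the 8 libraries was nearest to EIF2C2 and DICER1 were sought among 10501 others with a mean of at least 5 CPM. The measure was the root mean square difference of log2 CPM relative to siC. Nearest to EIF2C2 were SLC25A30 (0.0255), CYSTM1 (0.0548), USP53 (0.0556), TMEM14C (0.0659) and ZDHHC12 (0.0720), of which SLC25A30 stood at -0.06, -0.31 and 0.33 with siE1, siE2 and siE3. Among the 5 genes nearest to DICER1 were REEP3 (0.103), NCOA2 (0.106), MLL3 (0.109) and FLJ35776 (0.112), with NCOA2 at 0.20, 0.75 and 0.81. These distances describe the libraries and carry no test.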

How the data were processed

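Per the submitters' processing notes, reads were handled with TopHat 1.3.3, HTSeq and DESeq on hg19. The sources used here do not give the annotation, the strand setting or the treatment of reads that match several genes, so reads of a gene and its antisense partner cannot be separated. In GENCODE v29, noncoding genes on the opposite strand share exon bases with DGCR8 (longest stretch 439 bases), EIF2C1 (396) and EIF2C3 (85). The deposited table holds, per the file headers, raw counts per gene symbol for 8 libraries, and for each siRNA the authors' deposited fold (a linear ratio) and adjusted p-value. Groups came from the sample titles. The 10 genes and the wider lists were chosen with earlier results of these data known.

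The counts were tested with edgeR 4.0.16 in R 4.3.3 (filterByExpr, TMM, glmQLFit and glmQLFTest, a mean per group over 8 libraries, 4 residual degrees of freedom, Benjamini-Hochberg over 13395 genes, threshold 0.05). SE is the log2 fold change over the root of F, and intervals are 95%. The script was tested on simulated data. Named were the 10 genes, ESRRA, up to 4 genes per wider list with the smallest p in the average, and the 5 genes nearest in pattern to EIF2C2 and to DICER1 (pseudocount 0.5 CPM). A gene that this rule names is not reported here. Genes that share exons with the 10 were named after their values were seen. Replicates were compared by chi-square (3.10 to 5.16 per degree of freedom), so none agreed within sampling noise. Alternatives used DESeq2 1.42.0, limma 3.58.1, other scalings and filters, a fold limit of 1.5, only the groups compared, a replicate block and each library left out.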

Additional observations from a re-analysis of the deposited data

Results flagged for a closer look

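EIF2C2 was called lower with siE2 and higher with siE3 against the same siC libraries, and the difference between the siRNAs was itself called, at -0.61 on the log2 scale (SE 0.0462, edgeR adjusted p = 4.65e-08). Both siE2 libraries were below both siC libraries and both siE3 libraries above them. Over the alternatives the difference ran from -0.63 to -0.57, with adjusted p from 2.81e-21 to 3.57e-06.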

How the results depend on the processing

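With at least 1.5-fold required besides the adjusted p, the number of the 10 genes called was 1 (siE1), 3 (siE2), 3 (siE3) and 3 (average) against siC, in place of 6, 5, 7 and 6, where 14.7%, 18.0%, 9.97% and 9.53% of all genes passed. Between siRNAs it was 0 (siE1, siE2), 1 (siE1, siE3) and 1 (siE2, siE3), in place of 8, 8 and 6. Of 670 values of the 10 genes against siC under alternatives, 657 kept their direction and side of the threshold or stayed uncalled, 3 lost a call, 10 gained one and 0 called values changed sign. Leaving out 1 library gave 6 to 7, 5 to 6, 5 to 8 and 5 to 6 calls against siC, and 6 to 8, 6 to 8 and 4 to 7 between siRNAs. With the replicate number as a block, 6, 5, 7 and 6 genes were called against siC and 8, 8 and 5 between siRNAs; EIF2C3 between siE2 and siE3 lost its call (edgeR adjusted p = 0.0609). The labels do not say that a number pairs libraries. Over genes, deviations of same-numbered libraries correlated at 0.26 between siC and siE3 and at 0.37 between siE1 and siE2. In every other pair of groups the correlation was negative, at -0.40 to -0.34. The main fit has no term for such a shared replicate difference. With the numbers of siE1 and siE2 crossed, a choice made after seeing the data, 8, 6, 8 and 6, and 8, 8 and 7 genes were called. Against siC this added DGCR8 with each siRNA and TNRC6B with siE1. In the wider lists, silencing effectors called with siE1 went from 16 to 10 without siC replicate 2 or siE1 replicate 2. Without siC replicate 2, calls went from 7 to 4 in the SMN complex with siE2, and with siE3 from 5 to 1 in tailing and turnover and from 11 to 5 in host transcripts. Tailing and turnover with siE3 had 2 calls by DESeq2 and 3 without siE3 replicate 2, and nuclear processing with siE3 had 8 in place of 5 under the crossed block. The causes were not tested. With 2 libraries a group, each gene has only 4 residual degrees of freedom of its own. The quasi-likelihood fit adds degrees of freedom borrowed from the spread of all genes, and the p-values and intervals use that total. Leaving 1 library out assumes that the lone library varies like the rest.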
